A study of Rattus norvegicus with 25 samples.

Results

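Livers of rats injected with pyrroloquinoline quinone (PQQ) after being raised without it were compared with livers of rats fed standard laboratory chow. The members were the 4 arrays titled PQQ(-/+), called repletion here, and the 6 arrays titled chow, that is 10 of the 25 arrays of the study. Chow 1 and chow 2 were nearly identical and were averaged, which left 4 repletion and 5 chow samples of 23 samples in all. The repletion rats were male pups of Sprague-Dawley dams that ate a basal diet lacking PQQ, given as ASD in the labels without spelling it out, for the last 10 days of gestation, and the pups stayed on that diet. At an age of 6.5 weeks they were given PQQ into the peritoneum at 1.5 mg per kg of body weight every 12 h over 36 h. The chow rats were male Sprague-Dawley rats on standard laboratory chow, with no injection named in the labels and no age given. A vehicle-injected group is not among the groups used here. The ASD diet, the rearing without PQQ and the injections therefore distinguish the groups together and cannot be told apart.

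PQQ is a redox cofactor of bacterial dehydrogenases that animals obtain in small amounts from food, and in rodents its lack has been linked to mitochondrial function and growth. The liver turns surplus carbohydrate into fatty acids through a chain of cytosolic enzymes, makes sterols through the mevalonate pathway, breaks down dietary amino acids and oxidises foreign compounds and steroids with cytochrome P450 enzymes. The levels of these enzymes are known to respond to the composition of the diet.

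Liver RNA of individual rats was labelled with biotin and hybridized to 1-colour CodeLink arrays with 9911 gene probes, so a value is the brightness of a probe and has no read depth. Values are given as log2 of the normalized intensity. The median probe intensity above background was 141 to 156.6 on the repletion arrays, 103.2 to 137.4 on chow 4 to 6 and 148.4 to 152.7 on chow 1 to 3. Chow 6 was the dimmest array, and its log2 ratios to chow 4 and chow 5 had a spread of 0.347 and 0.345, against 0.251 between chow 4 and chow 5. The arrays fell into 5 sets that shared defective spots, which the labels do not name. Chow 4 to 6 lay in the same set as all repletion arrays, and chow 1 to 3 lay in another. The bacterial control HISB read 401.2 to 734.3 on repletion arrays, 352.7 to 491.1 on chow 4 to 6 and 19890 to 21180 on chow 1 to 3, so these controls read differently between the sets. The comparison was therefore made within the shared set (4 repletion and 3 chow samples) and repeated against all 5 chow samples.

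Within the shared set, 22 of 5128 tested probes were higher (0.429%) and 17 were lower (0.332%), together 0.761%, in repletion livers than in chow livers at a Benjamini-Hochberg adjusted p of 0.05 in limma. An unadjusted p under 0.05 was found for 727 probes. Against all chow samples, 34 of 5134 probes were higher (0.662%) and 45 were lower (0.877%), together 1.54%. Another fit kept the difference within the set and took the spread from all 23 samples, and it called 58 probes higher (1.13%) and 67 lower (1.31%), together 2.43%. Counted by genes at their brightest probe, 19 of 3701 were higher (0.513%) and 14 lower (0.378%) within the set, together 0.892%, and 24 of 3708 higher (0.647%) and 37 lower (0.998%) against all chow samples, together 1.65%. Values that did not overlap were more common: 14.1% of genes within the set (6.35% higher, 7.78% lower) and 8.36% against all chow samples (3.61% higher, 4.75% lower). The fits within the set and against all chow samples share the repletion samples and chow 4 to 6, and 22 probes passed in both. The within-set counts rest on few arrays. They fell to 5 higher and 5 lower without repletion 2, to 7 and 5 without repletion 3, to 7 and 6 without repletion 4, to 11 and 6 without repletion 1, to 8 and 5 without chow 5 and to 16 and 9 without chow 4. Without chow 6 they were 15 and 12. The genes A2m, Nupr1, Acly, Fasn, Sds, Cyp2c22 and Cyp3a9 passed within the set whichever of the 7 samples was left out. Of the named genes called against all chow samples, A2m, Serpina7, Fdps, Fads2, Cars1, Sds, Cyp2c22, Cyp3a9, Hacl1, Adora1 and Gdf15 passed there in all 9 fits without a sample. Cib2 lost that call without repletion 2 and Nupr1 without repletion 1, Tor3a kept it in the 7 fits that could be made, and the others kept it in 0 to 6 of 9.

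The distance between chow arrays of the 2 sets gives a rough yardstick for these changes. The median absolute log2 difference over 5070 probes was 0.152 between repletion and chow within the set, and 0.227 between chow 4 to 6 and chow 1 to 3. Differences past 1 were seen for 67 probes between repletion and chow within the set, and for 104 probes between the chow arrays of the 2 sets. The first distance rests on 4 against 3 samples and the second on 3 against 2, so their sizes are not directly comparable. Whether this second distance comes from the arrays, the hybridization or the rats was not tested.

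**Figure D1:**
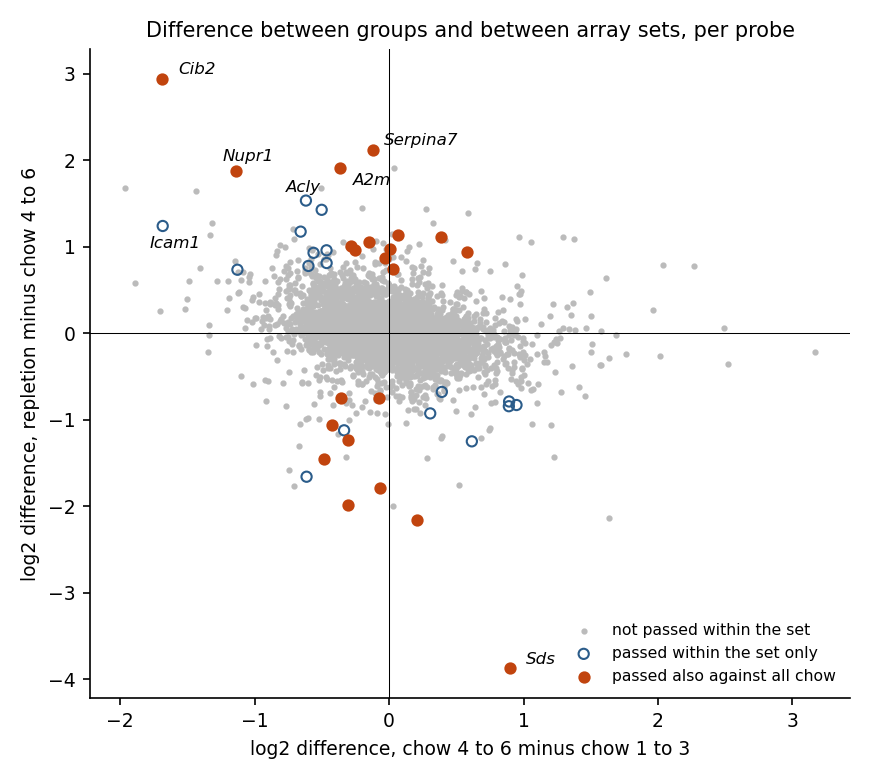
Each point is a probe, with the log2 difference between chow 4 to 6 and chow 1 to 3 on the x axis and that between repletion and chow 4 to 6 on the y axis; both axes contain chow 4 to 6, so a downward slope is built in. Filled points passed within the shared set and against all chow samples, open points within the set only; Cib2 and Icam1 lie at -1.69 and -1.68 on the x axis, while Sds lies at -3.87 on the y axis.

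Some enzymes of fatty acid synthesis were higher in repletion livers. Of 14 tested genes of this list, 5 rose within the set, none fell and 9 did not pass, where 0.513% of all genes rose. The list had a median log2 difference of 0.80, against -0.01 over all genes, and in 9 of the 14 every repletion sample lay above every chow sample of the set, as in 6.35% of all genes. All 14 differences were positive, from 0.19 for Acsl3 to 1.53 for Acly. Of the 14, 10 had an unadjusted p under 0.05 in limma, against 727 of 5128 probes.

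Acly, ATP citrate lyase, which supplies the acetyl-CoA for fat and sterol synthesis, stood at 13.50, 13.85, 13.52 and 13.48 in repletion 1 to 4. It stood at 12.12, 12.28 and 11.75 in chow 4 to 6, at 12.66 in chow 1 and 2 and at 12.68 in chow 3. Every repletion sample was above every chow sample, and the chow samples of the other set were the highest of their group. Within the set Acly was 2.90-fold higher (log2 difference 1.53, SE 0.16, limma adjusted p = 0.00522), and against all chow samples its difference of 1.29 did not pass (adjusted p = 0.0605). Its promoter is printed together with that of Fdps, a sterol pathway enzyme described further on, as the representatives of the fat and the sterol genes that passed.

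The windows run from 250 bases before to 50 bases after the annotated start, 5′ to 3′ on the coding strand, from the RefSeq promoter table of build GRCr8, at chr10:85963582-85963881 (minus strand) for Acly and chr2:176804767-176805066 (minus strand) for Fdps. Capitals mark the letters CCAAT on either strand (ATTGG where read on the other strand), the box bound by the factor NF-Y.
Acly: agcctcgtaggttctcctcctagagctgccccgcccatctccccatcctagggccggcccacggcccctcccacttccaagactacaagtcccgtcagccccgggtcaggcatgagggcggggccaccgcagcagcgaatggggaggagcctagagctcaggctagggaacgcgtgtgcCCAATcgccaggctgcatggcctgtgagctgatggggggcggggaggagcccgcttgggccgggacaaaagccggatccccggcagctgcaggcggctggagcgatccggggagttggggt
Fdps: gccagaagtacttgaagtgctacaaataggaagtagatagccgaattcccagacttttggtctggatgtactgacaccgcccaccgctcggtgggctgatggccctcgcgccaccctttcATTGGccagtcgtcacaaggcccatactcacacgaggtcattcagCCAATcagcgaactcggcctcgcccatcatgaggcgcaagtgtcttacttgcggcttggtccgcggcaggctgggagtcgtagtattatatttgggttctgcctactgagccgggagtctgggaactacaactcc
The Acly window holds it at -71 and the Fdps window at -130 and -85, counted from the start. CCAAT was found in 37.7% of 27457 promoters in the table and in 39.3% of the 3093 promoters of tested genes. Searches on both strands for CACGTG, the E-box, and TCACNCCAC, a form of the sterol response element, found no match in either window. They occur in 6.65% and 1.13% of all promoters. Of the other fat and sterol genes described here, Fads1 held CCAAT at -121 and Mvd at -35 and -2. Me1 and Fads2 held none of the 3 motifs. Cyp51 and Ebp were not searched, and Fasn, Elovl6 and Acaca are named only. The motifs were chosen after the genes were known.

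Fasn, fatty acid synthase, read 12.45, 12.90, 12.48 and 12.33 in repletion 1 to 4. In chow 4 to 6 it read 10.91, 11.38 and 11.04, and in the other chow samples 11.72 and 11.50. The groups did not overlap. The difference was 1.43 within the set (2.69-fold, SE 0.17, adjusted p = 0.0107) and 1.23 against all chow samples, where it did not pass (adjusted p = 0.0772).

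Acaca, acetyl-CoA carboxylase, which commits acetyl-CoA to fat, rose by 0.81 within the set (SE 0.12, adjusted p = 0.0278), with repletion samples at 11.91 to 12.13 and chow 4 to 6 at 10.98 to 11.30. Chow 1 and 2 and chow 3 stood at 11.71 and 11.56, and against all chow samples Acaca did not pass (difference 0.63, adjusted p = 0.16). Elovl6, which lengthens palmitate to stearate, rose by 1.14 (SE 0.18, adjusted p = 0.0363), with repletion samples at 8.28 to 8.93 and chow 4 to 6 at 7.35 to 7.79. Against all chow samples it was just past the threshold (1.17, adjusted p = 0.0499), and it passed in none of the 9 such fits without a sample (adjusted p up to 0.142). Fads1, the delta-5 desaturase of long polyunsaturated fats, rose by 0.78 within the set (adjusted p = 0.0442) and had a difference of 0.54 against all chow samples (adjusted p = 0.372). It was named after its values were seen. Fads2, the delta-6 desaturase, had the reverse pattern of calls. Its difference was 0.97 within the set (adjusted p = 0.0564) and 0.96 against all chow samples (adjusted p = 0.0118).

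Me1, malic enzyme, which makes NADPH for fat synthesis, has 2 tested probes. The dimmer probe was at 8.84, 8.38, 8.30 and 8.29 in repletion livers and at 7.38, 7.35 and 7.45 in chow 4 to 6 (difference 1.06, SE 0.15, adjusted p = 0.0251). That probe passed in 2 of the 7 within-set fits without a sample. The brighter probe, which stands for the gene in the list, had a difference of 0.90 and did not pass (adjusted p = 0.0829). Other members of the list that did not pass included Acsl3, Elovl5, Dgat2, Dgat1, Lpin1 and Acss2, with differences of 0.19 to 0.86.

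Array set and sample choice bear on the size of this group. Between chow 4 to 6 and chow 1 to 3, at the same diet, the median of the list differed by -0.44. Against all chow samples the list had a median of 0.58 and 2 members passed, Elovl6 and Fads2. Within the set Acly and Fasn passed whichever sample was left out, and Acaca, Elovl6 and Fads1 did not: 3 members passed without chow 4, chow 6 or repletion 1, and 2 passed without chow 5, repletion 2, repletion 3 or repletion 4. Without chow 5 those 2 were Acly and Fasn.

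**Figure D2:**
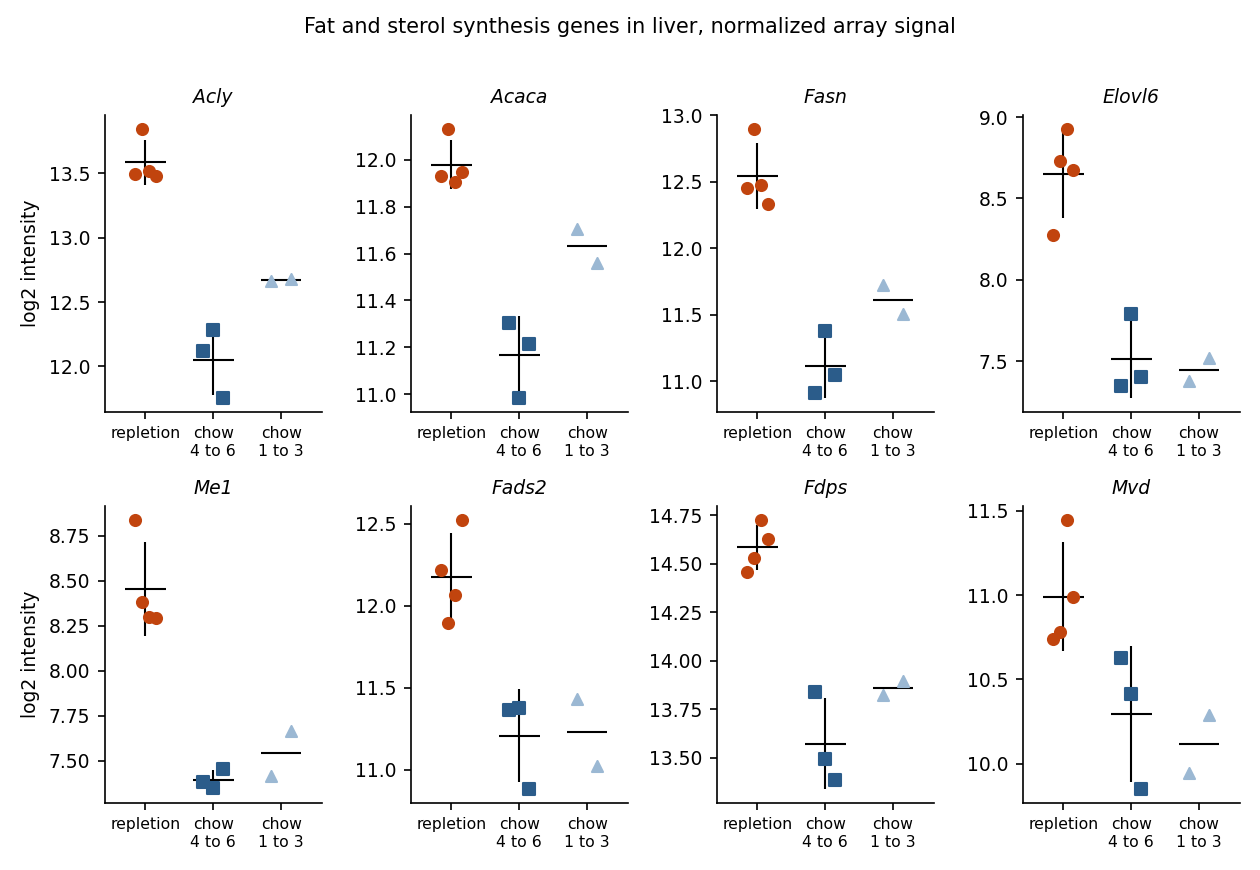
Log2 intensity of 8 fat and sterol synthesis genes per sample (y axis), with repletion samples as circles, chow samples of the shared set as squares and chow samples of the other set as triangles (chow 1 and 2 averaged). Me1 is shown at its dimmer probe. Lines are group means and, for groups of 3 or more, vertical bars are 1 SD. Repletion samples lie above all chow samples for every gene shown. For Acly, Acaca, Fasn, Fdps and Me1 the triangles lie above the mean of the squares.

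Genes of cholesterol synthesis and uptake had mostly positive differences, with few calls. Within the set 1 of 14 tested genes passed, and 13 did not (background 0.513% higher). Of the 14, 9 had an unadjusted p under 0.05 in limma, against 727 of 5128 probes. The median difference was 0.40, 13 of the 14 differences were positive, and in 8 the repletion samples all lay above the chow samples of the set, as in 6.35% of all genes. Fdps, farnesyl diphosphate synthase, which makes the branch point isoprenoid, stood at 14.46, 14.53, 14.73 and 14.63 in repletion livers. It stood at 13.84, 13.49 and 13.39 in chow 4 to 6, and at 13.82 and 13.89 in the other chow samples. The groups were fully apart, by 1.01 within the set (2.02-fold, SE 0.14, adjusted p = 0.0208) and 0.90 against all chow samples (SE 0.13, adjusted p = 0.00102). Within the set the call was lost without chow 5, repletion 2, repletion 3 or repletion 4 (adjusted p up to 0.0716, differences of 0.92 to 1.14 over the 7 fits). Mvd, which decarboxylates mevalonate diphosphate, passed against all chow samples (0.77, SE 0.20, adjusted p = 0.0499), in 1 of 9 fits without a sample, that without chow 4, and did not pass within the set (0.69, adjusted p = 0.223). Cyp51, lanosterol demethylase, differed by 1.02 without passing within the set (adjusted p = 0.15), and Ebp, the sterol isomerase, was the member with a negative difference (-0.41, adjusted p = 0.348).

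Sds, serine dehydratase, which converts serine to pyruvate for glucose production, had the lowest difference of all called probes. Its probe 9820 read 7.64, 7.48, 7.83 and 8.32 in repletion 1 to 4. It read 11.01, 11.56 and 12.50 in chow 4 to 6, and 10.44 and 11.14 in the other chow samples. The lowest chow sample lay over 2 log2 units above the highest repletion sample. Sds fell to a level 14.6-fold lower within the set (log2 difference -3.87, SE 0.33, adjusted p = 0.00201) and 11.4-fold lower against all chow samples (-3.51, SE 0.53, adjusted p = 0.00102). A brighter Sds probe, 22031, read 10.09 to 10.75 in repletion livers and 12.17 to 13.28 in chow 4 to 6. Its difference within the set was smaller, at -2.16 (SE 0.26, adjusted p = 0.0111). The probes thus differ in the size of the change and share its direction.

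The other 35 tested genes of amino acid breakdown gave few calls. With Sds at its brighter probe, 2 of 36 fell, none rose and 34 did not pass, against 0.378% of all genes lower. Of the 36 differences 26 were negative and 10 positive. An unadjusted p under 0.05 in limma was found for 14 of the 36, against 727 of 5128 probes. The list median was -0.19, and 7 genes had repletion samples all below the chow samples of the set, against 3 all above, as in 7.78% and 6.35% of all genes. The other call besides Sds was Ivd, isovaleryl-CoA dehydrogenase of leucine breakdown, which fell by 0.68 within the set (SE 0.12, adjusted p = 0.0487). Repletion samples read 11.03 to 11.38 and chow 4 to 6 read 11.78 to 11.91, but chow 3 of the other set read 11.17, inside the repletion range. Against all chow samples Ivd did not pass (-0.52, adjusted p = 0.0954), and within the set it passed in none of the 7 fits without a sample. Cdo1, cysteine dioxygenase, passed against all chow samples alone (-0.70, SE 0.15, adjusted p = 0.0214, and -0.55, adjusted p = 0.102 within the set).

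**Figure D3:**
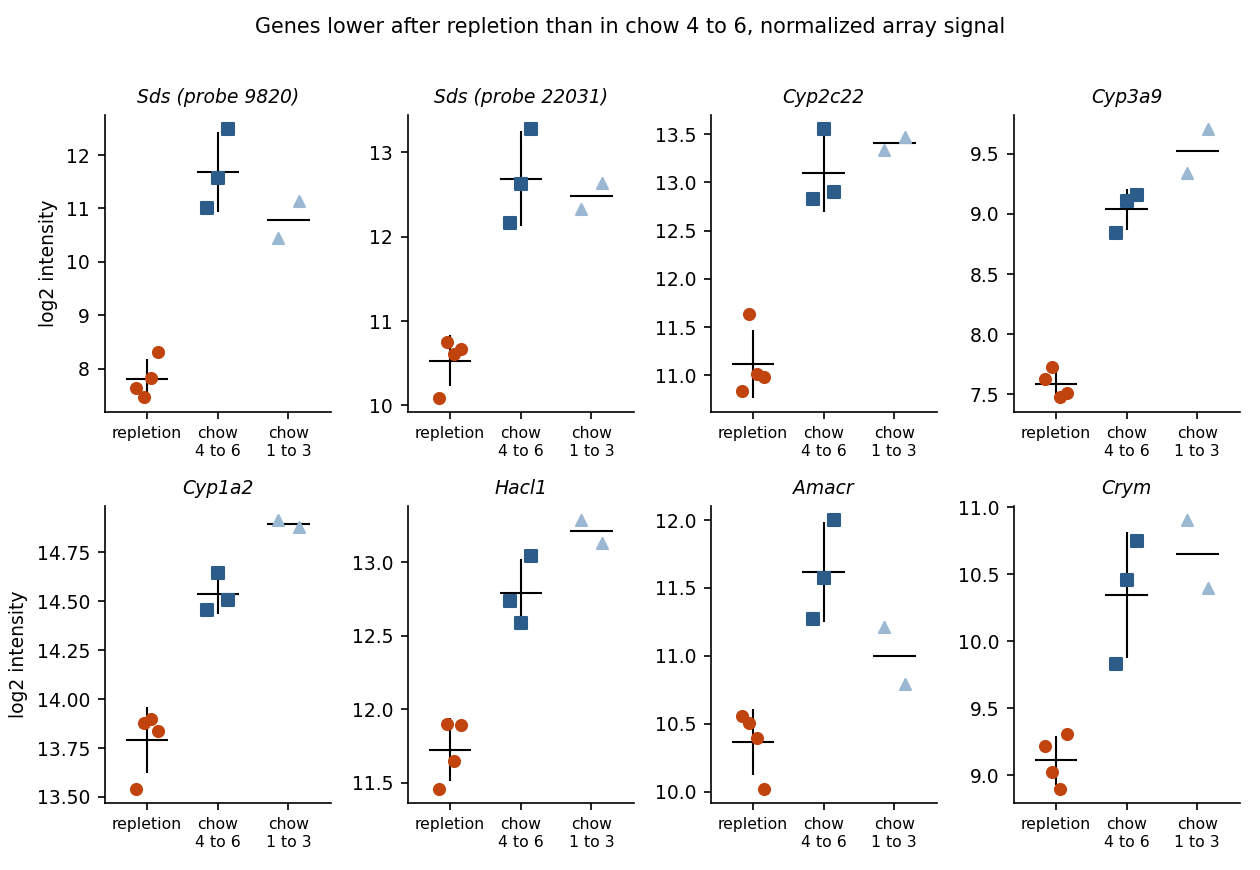
Log2 intensity per sample (y axis) of 7 genes, Sds with both of its probes, that were lower in repletion livers than in chow 4 to 6; circles are repletion samples, squares chow samples of the shared set and triangles chow samples of the other set. Lines are means and vertical bars 1 SD for groups of 3 or more; Sds probe 9820 lies at 7.48 to 8.32 in repletion samples, against 10.44 to 12.50 in chow samples.

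Some cytochrome P450 genes were lower in repletion livers. Of 16 tested members of the xenobiotic and steroid P450 list, 3 fell within the set, none rose and 13 did not pass (0.378% of all genes fell). Of the 16 differences 8 were positive and 8 negative, with a list median of -0.02 within the set and -0.17 against all chow samples. In 5 members, repletion samples all lay below the chow samples of the set, as in 7.78% of all genes. Without any of the 7 samples in turn 2 remained, Cyp2c22 and Cyp3a9.

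Cyp2c22, a liver P450 that oxidises retinoic acid in the rat, read 10.84, 11.64, 11.01 and 10.98 in repletion livers. It read 12.83, 13.56 and 12.91 in chow 4 to 6, and 13.34 and 13.47 in the other chow samples. No values overlapped. Cyp2c22 was 3.94-fold lower within the set (-1.98, SE 0.23, adjusted p = 0.0107) and 4.29-fold lower against all chow samples (-2.10, SE 0.29, adjusted p = 0.00064).

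Cyp3a9, a steroid-metabolising P450 of the rat, read 7.63, 7.73, 7.47 and 7.51 in repletion livers, against 8.85, 9.11 and 9.16 in chow 4 to 6. Chow 1 and 2 and chow 3 were at 9.34 and 9.71. All chow samples were above all repletion samples. It was 2.73-fold lower within the set (-1.45, SE 0.12, adjusted p = 0.00201) and 3.13-fold lower against all chow samples (adjusted p = 0.000197).

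Cyp1a2, which oxidises caffeine and aromatic amines, fell by 0.75 (SE 0.13, adjusted p = 0.0442), with 13.54 to 13.90 in repletion livers and 14.45 to 14.65 in chow 4 to 6. It passed against all chow samples (-0.89, adjusted p = 0.0214) and in none of the 7 within-set fits without a sample. The probes of Cyp3a23-3a1 disagree. The dimmer was lower by 0.74 within the set (adjusted p = 0.0487) and the brighter had a difference of 0.24 (adjusted p = 0.823). The probes of Cyp17a1 also disagree, with 1.08 at the dimmer and 0.28 at the brighter within the set, and the dimmer passed against all chow samples alone (1.25, adjusted p = 0.0288). Rat P450 genes have close paralogs, and how far a probe reads those was not tested.

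In the peroxisome, which shortens and breaks down branched and very long fatty acids, 2 of 9 tested genes fell, 1 rose and 6 did not pass, where 0.378% of all genes fell and 0.513% rose. Hacl1, 2-hydroxyacyl-CoA lyase of alpha-oxidation, read 11.46, 11.90, 11.65 and 11.89 in repletion livers and 12.74, 12.58 and 13.04 in chow 4 to 6, with 13.29 and 13.13 in the other chow samples. The groups did not overlap, and Hacl1 was 2.09-fold lower within the set (-1.06, SE 0.16, adjusted p = 0.0278) and 2.35-fold lower against all chow samples (adjusted p = 0.00102). Within the set it kept its call without chow 6 and lost it without any other sample (adjusted p up to 0.076).

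Amacr, the racemase of branched-chain acyl-CoA, fell by 1.25 within the set (SE 0.20, adjusted p = 0.0364) and did not pass against all chow samples (-1.0, adjusted p = 0.206). A dimmer Amacr probe differed by -0.43 (adjusted p = 0.42). Crat, carnitine acetyltransferase, rose by 0.93 within the set (SE 0.15, adjusted p = 0.041) and had 0.71 against all chow samples (adjusted p = 0.0933). Acox2, an oxidase of branched chains, and Ehhadh, the bifunctional enzyme, had differences of 0.06 and 0.05 and did not pass (adjusted p = 0.944 and 0.915). The list median was 0.05. Without chow 5, repletion 1, repletion 2 or repletion 4 none of the 9 passed.

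The transcripts of Serpina7 and Crym, whose proteins carry or bind thyroid hormone, moved in opposite directions. Serpina7, thyroxine-binding globulin, read 8.81, 9.0, 9.85 and 8.46 in repletion livers, against 7.47, 6.99 and 6.25 in chow 4 to 6 and 7.27 and 6.79 in the other chow samples. The groups were apart, by 2.12 within the set (4.35-fold, SE 0.36, adjusted p = 0.0442) and 2.07 against all chow samples (adjusted p = 0.00587). Crym, mu-crystallin, which binds thyroid hormone in the cytosol, read 9.22, 9.02, 8.89 and 9.30 in repletion livers and 9.83, 10.45 and 10.75 in chow 4 to 6. It fell by 1.23 (SE 0.21, adjusted p = 0.0442, and -1.36, adjusted p = 0.0431 against all chow samples). Both calls were lost within the set in 6 of 7 fits without a sample, each being kept only without chow 4. Rarb, a retinoic acid receptor, passed against all chow samples (1.02, adjusted p = 0.0214) and not within the set (0.83, adjusted p = 0.06). Of 9 tested genes of the thyroid and retinoid list, 1 rose, 1 fell and 7 did not pass, where 0.513% of all genes rose and 0.378% fell.

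A2m, the protease inhibitor alpha-2-macroglobulin that marks the acute phase in the rat, stood at 9.94, 9.84, 10.28 and 10.22 in repletion livers. It stood at 8.52, 8.10 and 7.86 in chow 4 to 6 and at 8.36 and 8.69 in the other chow samples. The groups did not overlap, with a difference of 1.91 within the set (3.77-fold, SE 0.18, adjusted p = 0.00329) and 1.77 against all chow samples (adjusted p = 0.00541). A2m was the member that passed among 17 tested acute phase genes within the set, where 0.513% of all genes rose. The list had 13 positive and 4 negative differences and a median of 0.08, and in 3 members the repletion samples all lay above the chow samples of the set, as in 6.35% of all genes. C3, a complement protein, and Orm1, orosomucoid, differed by 0.95 and -0.27 without passing (adjusted p = 0.359 and 0.739). Cebpd, a transcription factor of the acute phase, was higher against all chow samples (1.01, adjusted p = 0.0165) and did not pass within the set (0.72, adjusted p = 0.151).

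Nupr1, a stress-induced nuclear protein, read 12.25, 11.96, 12.16 and 12.14 in repletion livers and 10.5, 10.25 and 10.01 in chow 4 to 6. Chow 1 and 2 and chow 3 were higher, at 11.43 and 11.35. All chow samples stayed below the repletion samples, by 1.87 within the set (3.67-fold, SE 0.14, adjusted p = 0.00201) and 1.42 against all chow samples (adjusted p = 0.0188). The chow samples of the 2 sets differed by -1.14. Cib2, a calcium and integrin binding protein, showed a like split. It read 10.36, 11.03, 10.63 and 10.10 in repletion livers, 8.45, 6.70 and 7.61 in chow 4 to 6, and 9.97 and 8.58 in the other chow samples. Its difference was 2.94 within the set (SE 0.38, adjusted p = 0.0153) and 2.27 against all chow samples (adjusted p = 0.0135), while the chow samples of the 2 sets differed by -1.69. Within the set its call was lost without repletion 2 or repletion 3 (adjusted p up to 0.0584).

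Icam1, an adhesion molecule of endothelium and immune cells, was named after its values were seen, because the chow samples of the 2 sets differed by -1.68. Repletion samples read 10.58 to 10.82 and chow 4 to 6 read 9.22 to 9.72, and the difference of 1.24 passed (SE 0.14, adjusted p = 0.00924). Chow 1 and 2 and chow 3 read 11.36 and 10.97, above every repletion sample, and against all chow samples Icam1 did not pass (adjusted p = 0.716).

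The other genes higher in both fits were of mixed function. Fabp2, a fatty acid binding protein best known from the intestine, rose by 1.11 within the set (SE 0.18, adjusted p = 0.0438), and its second probe had 1.39 (adjusted p = 0.0782). Cars1, cysteinyl-tRNA synthetase, rose by 0.98 (SE 0.13, adjusted p = 0.0184), with 10.08 to 10.29 in repletion livers and 9.0 to 9.43 in chow 4 to 6. Tor3a, Enc1 and Adamts1, an endoplasmic reticulum ATPase, a ubiquitin ligase adaptor and an extracellular protease, rose by 0.94, 0.87 and 0.75. Their adjusted p-values were 0.0442, 0.0442 and 0.0487, and Cars1 kept its call in 3 of 7 fits without a sample, being lost without chow 5, repletion 1, repletion 2 or repletion 4, while Fabp2, Tor3a and Enc1 kept it in none of those that could be fitted and Adamts1 only without chow 4.

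Some genes were lower in the comparison with all chow samples without passing within the set. Gdf15, a stress hormone of the TGF-beta family, read 7.68 to 8.19 in repletion livers, against 8.36 to 9.55 in chow samples, and its difference was -1.20 (SE 0.22, adjusted p = 0.00786, and -1.0, adjusted p = 0.145 within the set). Fmo5, a flavin monooxygenase, Adora1, the A1 adenosine receptor, and B3gnt7, a glycosyltransferase, had -1.32, -1.13 and -1.32 against all chow samples (adjusted p = 0.0277, 0.00786 and 0.029) and -1.44, -1.01 and -1.05 within the set (adjusted p = 0.116, 0.0578 and 0.0619). Ldha, lactate dehydrogenase, at its dimmer probe, and Rps18, a ribosomal protein, were higher against all chow samples, by 0.49 and 0.60 (adjusted p = 0.0223 and 0.0221). The brighter Ldha probe had 0.32 and did not pass (adjusted p = 0.0902). LOC100910973 was lower by 0.83 against all chow samples (adjusted p = 0.0277), and no function is given for it here.

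Map2k5, a kinase of the ERK5 cascade, was lower within the set at its brighter probe (-1.12, SE 0.20, adjusted p = 0.0487) and did not pass against all chow samples (adjusted p = 0.0655). Its other probe, far dimmer, had a difference of -0.01 (adjusted p = 0.957). Psmb9, an immunoproteasome subunit, was lower within the set (-0.79, adjusted p = 0.0373) and not against all chow samples (adjusted p = 0.467), and the chow samples of the 2 sets differed by 0.89 for it. It was the member that passed among 31 tested proteasome genes, whose median was -0.11, where 0.378% of all genes fell.

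None of 34 tested genes of oxidative phosphorylation passed in limma within the set (median 0.04, 2 at an unadjusted p under 0.05), and none of 15 genes of mitochondrial beta-oxidation and ketogenesis did (median 0.14, 3 unadjusted). None of 18 genes of thioredoxin, peroxiredoxin and glutathione defence passed (median -0.06, 3 unadjusted). None of 4 tested mitochondrial biogenesis regulators passed (1 unadjusted), but all 4 differences were positive, with a median of 0.36. Over all probes tested within the set, 727 of 5128 had such an unadjusted p. Tfam, the mitochondrial transcription factor, read 10.06 to 10.21 in repletion livers and 9.95 to 10.07 in chow 4 to 6 (difference 0.13, SE 0.10, adjusted p = 0.584). Txn1, thioredoxin, and Txnip, its inhibitor, differed by -0.17 and -0.49 (adjusted p = 0.536 and 0.21). Stat3, a cytokine-activated transcription factor, differed by 0.46 at its brighter probe (adjusted p = 0.19) and by 0.49 at its dimmer (adjusted p = 0.367). Against all chow samples these were 0.25 and 0.88 (adjusted p = 0.54 and 0.174). At both probes every repletion sample lay above every chow sample of the set, as in 6.35% of all genes. Txnrd1, Jak2, Ppargc1a and Nrf1 had no tested probe.

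The 5 tested clock genes had a median of -0.38 and none passed (2 at an unadjusted p under 0.05). Dbp, a clock output factor, read 10.35, 10.75, 11.27 and 11.66 in repletion livers and 11.87, 11.59 and 12.52 in chow 4 to 6, so the groups overlapped (difference -0.98, SE 0.32, adjusted p = 0.226). Cry2, a clock repressor, differed by -0.67 (adjusted p = 0.093), Nr1d2, a nuclear receptor of the clock, by -0.22 (adjusted p = 0.621) and Bmal1, the clock activator, by 0.40 (adjusted p = 0.616). Hsd17b6, a steroid dehydrogenase, had a large difference with wide spread. It read 9.27 to 10.54 in repletion livers and 10.28 to 12.83 in chow 4 to 6 (-1.99, SE 0.55, adjusted p = 0.158). Mgll, monoacylglycerol lipase, and Lpin1, a phosphatidate phosphatase, differed by -0.41 and 0.46 (adjusted p = 0.548 and 0.25). None of 13 tested genes of bile acid synthesis and transport passed (4 at an unadjusted p under 0.05), and Cyp7a1, the rate-limiting enzyme, named after its values were seen, differed by -2.13 within the set (adjusted p = 0.085). The 24 tested ribosomal protein genes had a median of 0.14 within the set, where none passed, and of 0.26 against all chow samples. Their median between the chow samples of the 2 sets was 0.27.

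**Figure D4:**
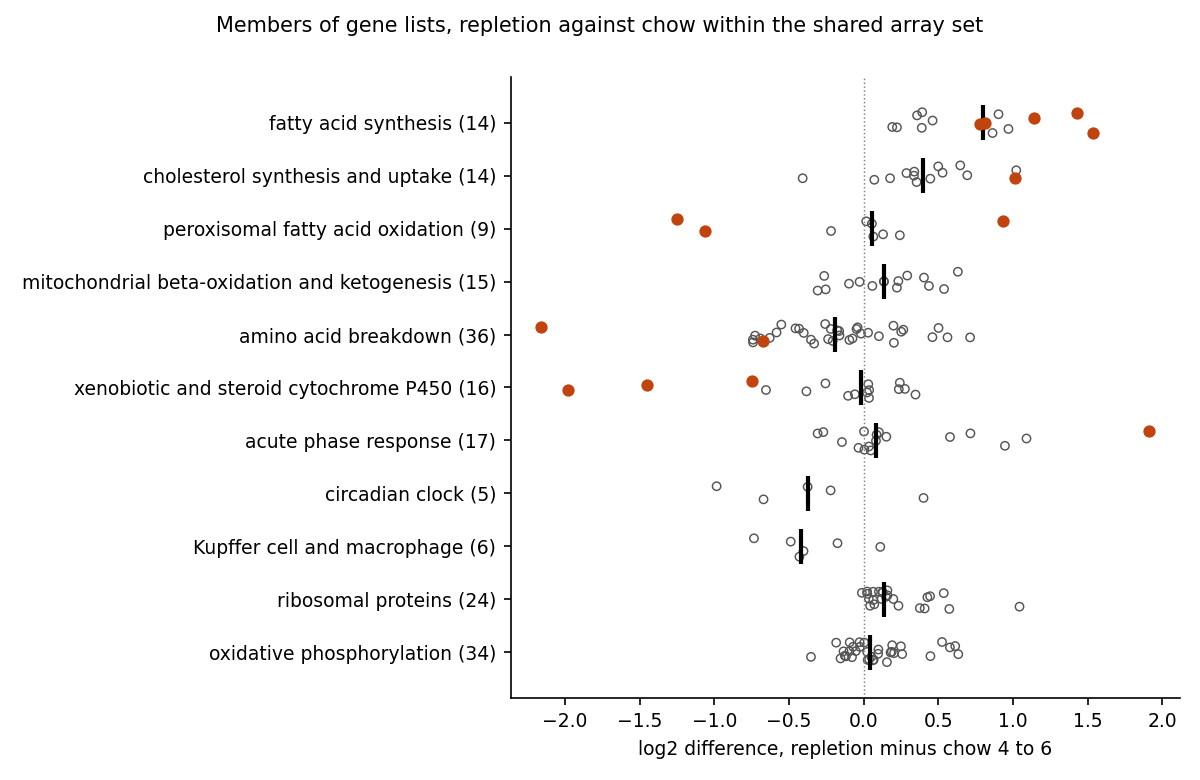
Log2 difference between repletion and chow 4 to 6 (x axis) for each tested gene of 11 lists (y axis, number tested in brackets), with filled points for genes at an adjusted p under 0.05 and black bars for list medians. Fatty acid synthesis has its bar at 0.80 and cholesterol synthesis at 0.40, and oxidative phosphorylation sits at 0.04.

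The arrays carried RNA of liver by its markers. All 6 tested hepatocyte markers lay above background on every array of the set, with a log2 summed level of 16.90 to 16.99 in repletion and 16.83 to 16.91 in chow 4 to 6. Alb, albumin, did not pass (adjusted p = 0.986). In whole liver, fewer cells of a type and less RNA per cell cannot be told apart. Of the markers of Kupffer cells, the macrophages of the liver, 0 of 6 tested genes passed within the set (4 at an unadjusted p under 0.05) and 1, Cd14, the lipopolysaccharide co-receptor, was lower against all chow samples (-0.74, SE 0.18, adjusted p = 0.0303). The Kupffer median within the set was -0.42, 4 of 6 genes had repletion samples all below the chow samples of the set, as in 7.78% of all genes, and the summed level was 13.40 to 13.64 in repletion, 13.88 to 14.06 in chow 4 to 6 and 13.52 to 13.69 in chow 1 to 3. Markers of sinusoidal endothelium had 0 of 6 passed (median -0.20) and those of stellate cells 0 of 7 (median -0.09). Exocrine pancreas, skeletal muscle, B cells, neutrophils and bile ducts rested on 1 tested marker each, and none passed within the set. Cela1 of the exocrine pancreas had a difference of -0.64 (10.72 to 11.32 in repletion, 11.49 to 11.70 in chow 4 to 6, 11.23 to 11.37 in chow 1 to 3). Tnnc2 of skeletal muscle had 0.62 (11.65 to 11.94 in repletion, 11.05 to 11.58 in chow 4 to 6, 12.18 to 12.49 in chow 1 to 3). Both passed with the spread taken from all samples (adjusted p = 0.0497 and 0.0495). Cd74, listed here under B cells, differed by -0.36, at an unadjusted p under 0.05 in limma. It read 12.40 to 12.71 in repletion, 12.75 to 13.09 in chow 4 to 6 and 12.76 to 12.89 in chow 1 to 3. S100a9 of neutrophils differed by 0.71 and Epcam of bile ducts by 0.06, and the 3 tested red blood cell markers had a median of -0.03. For T and NK cells and adipocytes no marker was tested. The part of other cell types in the results was not tested.

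To see whether the chow level or the repletion level stood apart for the named genes, they were set beside the 3 other ASD-diet groups. These had PQQ throughout (supplemented, 5 samples), lacked it throughout (deficient, 6 samples) or lost it after having had it (depletion, 3 samples). The depletion rats lost PQQ at an age of 6.5 weeks, for somewhat longer than the 36 h of the repletion injections. Depletion and repletion thus differ in the length as well as the kind of treatment. The 3 other groups lie on other array sets, so set and group cannot be told apart without the chow samples as a link. The comparison was added after the data were seen. Only supplemented 1 shared a set with chow samples, those of the other set. With array set as a block, the differences from all 3 groups therefore ran through that 1 sample. They are given as sizes only, and no call is drawn from them. Those from depletion also ran through deficient 6, the only deficient sample in the set of the depletion arrays. For A2m the repletion mean was 10.07 ± 0.21, and the supplemented, deficient and depletion means were 9.82 ± 0.53, 10.22 ± 0.57 and 9.85 ± 0.70, all above the chow mean of 8.31 ± 0.33 (SD). Cyp3a9 was at 7.59 ± 0.12 in repletion, at 7.25 to 7.91 in the means of the other ASD-diet groups and at 9.23 ± 0.32 in chow. Map2k5, at its brighter probe, was at 12.73 ± 0.38 in repletion, at 12.59 to 12.80 in the other ASD-diet means and at 13.98 ± 0.21 in chow. For these 3 genes, repletion did not differ from any of the 3 other groups in the fit of all groups (adjusted p from 0.197 to 0.944, differences from -0.32 to 0.34), which does not show that they are alike. With array set as a block the differences ran from -0.76 to 0.65.

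Cyp2c22 and Hacl1 had other patterns. Cyp2c22 was at 11.12 ± 0.35 in repletion, against 13.07 ± 0.67, 12.97 ± 0.41 and 12.62 ± 0.37 in supplemented, deficient and depletion livers and 13.22 ± 0.33 in chow. Repletion was lower than each of the 3 in the fit without array set, by 1.95, 1.85 and 1.51 (adjusted p = 0.000455, 5.97e-05 and 0.00602). With array set as a block the differences were -1.0, -0.28 and 0.64. Hacl1 was at 11.72 ± 0.21 in repletion and 11.99 ± 0.23 in depletion, against 13.35 ± 0.23 in supplemented, 13.74 ± 0.36 in deficient and 12.96 ± 0.29 in chow livers. Repletion was lower than supplemented and deficient by 1.62 and 2.02 (adjusted p = 3.36e-05 and 3.57e-07), and did not differ from depletion by the test (adjusted p = 0.483). With the block the differences from supplemented and deficient were -1.29 and -1.55.

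Sds was at 7.82 ± 0.37 in repletion, 7.08 ± 0.84 in supplemented, 9.43 ± 1.22 in deficient, 6.36 ± 0.35 in depletion and 11.33 ± 0.77 in chow livers at probe 9820. Repletion was below deficient by 1.61 (adjusted p = 0.0169) without the block, and with it the difference was -2.94. The brighter probe also passed against deficient without the block (-1.15, adjusted p = 0.0073), and with the block its difference was -1.86. Fasn was at 12.54 ± 0.25 in repletion and 12.53 ± 0.34 in depletion, against 11.58 ± 0.97, 11.80 ± 0.47 and 11.31 ± 0.33 in supplemented, deficient and chow livers. Without the block, Fasn in repletion passed against none of the 3 ASD-diet groups (adjusted p = 0.0618, 0.0958 and 0.99 for supplemented, deficient and depletion). With the block the differences from supplemented, deficient and depletion were 2.56, 2.02 and 0.74. Like the other blocked values they run through supplemented 1, so no call is drawn from them. Mean Acaca was 11.98 in repletion, 11.81, 11.96 and 12.07 in supplemented, deficient and depletion, and 11.35 in chow livers. In the same order Fads2 was at 12.18, 11.82, 12.12, 12.17 and 11.22, and Acly at 13.59, 12.98, 13.02, 13.67 and 12.30. Without the block neither Acaca, Fads2 nor Acly passed against the other ASD-diet groups (adjusted p from 0.187 to 0.984). Me1, at its dimmer probe, passed against deficient (0.78, adjusted p = 0.00923). Serpina7 had its highest mean in repletion, 9.03 ± 0.59, with 8.27 ± 0.49, 7.66 ± 0.74 and 8.02 ± 0.53 in supplemented, deficient and depletion livers and 6.95 ± 0.47 in chow livers. Without the block Serpina7 differed from deficient by 1.37 (adjusted p = 0.00445). It did not pass against supplemented (0.76, adjusted p = 0.149) or depletion (1.01, adjusted p = 0.126). With the block the difference from deficient was 1.23.

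**Figure D5:**
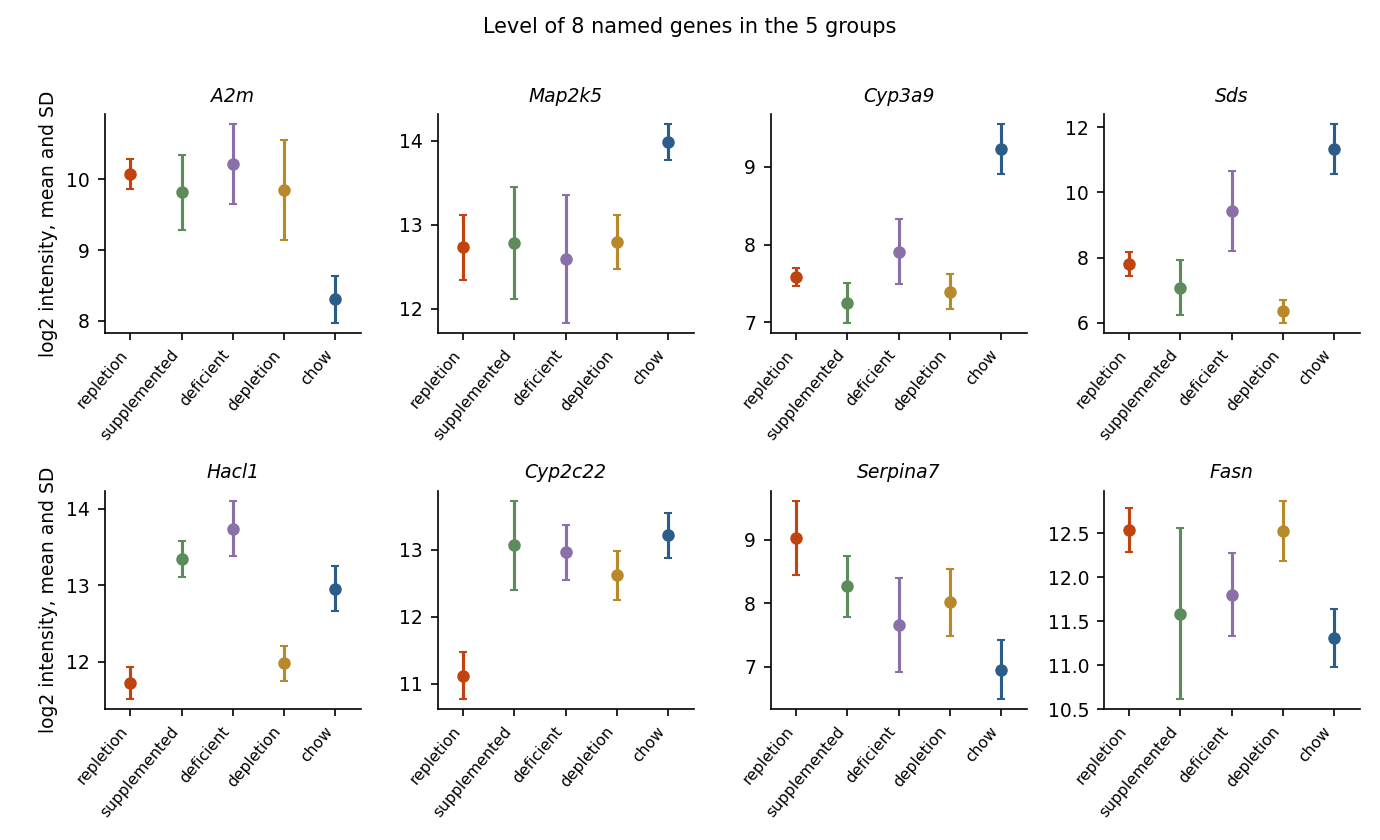
Mean log2 intensity (y axis) of 8 named genes in the 5 groups, with bars of 1 SD over 4 repletion, 5 supplemented, 6 deficient, 3 depletion and 5 chow samples. A2m, Map2k5 and Cyp3a9 have the 4 ASD-diet groups together and chow apart, whereas Cyp2c22 has repletion apart, at 11.12, from the other means of 12.62 to 13.22.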

How the data were processed

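The 25 arrays were of the CodeLink UniSet type for rat. Per the file headers, the deposited scanner files give the intensity of each spot, the local background and a flag (unit other), with no normalization. The deposited value table holds the authors' processed signal on a linear scale, and served as an alternative. How it was normalized is not given in the sources used here. Background was corrected with limma 3.58.1 (normexp, offset 50, R 4.3.3), controls and flagged spots were left out, and values were quantile-normalized over 25 arrays and taken to log2. Array sets were found from shared flagged spots (overlap over 0.5), and near-identical arrays (spread under 0.15 and ratio of spreads under 1.5) were averaged. Both limits were set after seeing the values. A probe was tested if above the array median in 50% of the samples of 1 group and with 2 usable values per group. Tests were limma, 2-sided, with Benjamini-Hochberg adjustment. They measure the spread between rats, since per the series' design text the RNA was not pooled. Of 9911 gene probes 7356 had 1 symbol. A gene is represented in lists by its brightest tested probe.

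Named genes were up to 12 risen and 12 fallen by size that passed in both fits without overlap and above background, filled from the fit against all chow samples alone, plus up to 6 called members of each list and 20 genes of interest, called or not. A gene called in opposite directions by the fits did not occur. Members, gene lists and genes of interest were chosen with earlier results of these data known. Numbers of repletion and chow samples did not pair (correlation of deviations 0.0392, -0.18 and 0.0332 for numbers 1, 3 and 4). Alternatives covered background, normalization, filters, flags, weights, array set, averaging and leaving out each sample. Tools were tested on simulated data. The comparison with other diet groups and the promoter motifs were added after seeing the data. Tables were made in Python 3.11.15 with pandas 2.3.3 on numpy 2.4.6, and plots with matplotlib 3.10.9.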

Additional observations from a re-analysis of the deposited data

Results flagged for a closer look

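In 115 groups of 4 or 5 values examined for a sample far from the others, 10 had one, where chance gives about 1 in 20. Of the named genes, Me1 (probe 20418) read 8.838 in repletion 1, against 8.29 to 8.383 in the other repletion samples, and Cyp1a2 read 13.54 in repletion 1, against 13.84 to 13.9. Acly read 13.85 in repletion 2, against 13.48 to 13.52, and Cry2 read 9.52 in repletion 3, against 9.056 to 9.071. Ivd read 11.17 in chow 3, against 11.7 to 11.91 in the other chow samples. Without repletion 1, Me1 still passed within the set (0.93, adjusted p = 0.0269) and Cyp1a2 did not (-0.66, adjusted p = 0.1). Over the 7 within-set fits without a sample, Me1 at this probe passed in 2.

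The other 5 were bacterial control spots of repletion 1, which read high on that array together. GND read 427 (181.2 to 206.8 on the other repletion arrays), LEUB 397.4 (193.7 to 206.3), HISB 734.3 (401.2 to 441.3), FIXB 800.1 (381.4 to 387.5) and ARAB 197.3 (74.16 to 90.07). All 5 come from the same array.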

How the results depend on the processing

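No call on a named gene changed direction. Of 28 named probes called within the set, 195 of 252 values kept the call under other settings and 79 of 194 without a sample. Of 34 called against all chow samples, these were 371 of 408 and 199 of 304. Within the set, 22 probes were higher and 17 lower. No filter on dim probes gave 10 and 5, requiring signal above background 12 and 7, and plain background subtraction gave 10 lower. Array weights gave 32 lower, and array set as a fixed block over all samples, which keeps the difference and pools the spread, gave 58 and 67. Without a sample the counts were 5 to 16 and 5 to 12. Against all chow samples (34 higher, 45 lower), array weights gave 74 and 102, near-identical arrays kept separate 71 and 103, and array set as a random block (correlation 0.542) 61 and 87, or as a fixed block 58 higher. Median scaling gave 37 and 29, so the balance of higher to lower turned, and within the set it gave 26 and 14. The authors' value table gave 18 and 13 within the set and 32 and 37 against all chow samples. Without a sample the counts were 11 to 46 and 15 to 66. The cause of these moves was not tested, except that a sample left out leaves fewer samples. The number of arrays limits the precision.

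With the replicate number as a block, on unaveraged arrays, 52 probes were higher and 64 lower. The numbers do not pair samples by the labels, and no paired analysis was possible within the set because repletion and chow share only number 4 there.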
